A study of Mus musculus with 6 samples.

Results

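Ribosomal protein genes of mouse embryonic stem cells were examined on promoter arrays hybridised with DNA from SMAD1/5, SMAD2 and SMAD4 chromatin immunoprecipitations. The genes were chosen by name alone: Rpl or Rps followed directly by a number, or Rplp1, Rplp2 or Rpsa, without the Rps6k kinases. This gave 81 genes of 16859 on the arrays, 48 of the large subunit and 33 of the small subunit. They carried 1943 probes, of which 680 lay within 1000 bp of a member's transcription start site, between 4 and 13 per gene with a median of 9. The name pattern also took in 6 look-alikes. Rpl22l1, Rpl3l, Rpl7l1, Rpl36al and Rps27l are paralogs of ribosomal proteins, and Rps19bp1 encodes a protein that binds Rps19 and is no part of the ribosome. Rplp0 and Rpl34 were on the arrays under the older names Arbp and 1100001I22Rik. The name pattern did not take them in, and their values are given separately.

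Each ribosome has a small subunit that decodes the message and a large subunit that joins amino acids, and each subunit holds many proteins around its RNA. Their genes are among the most strongly transcribed in dividing cells, mostly from promoters rich in CpG that lack a TATA box, and many start with a C followed by a run of pyrimidines, the terminal oligopyrimidine tract through which growth signals control their translation. SMAD proteins carry signals of the TGF-beta family to the nucleus. SMAD1 and SMAD5 serve BMP, SMAD2 serves Activin, Nodal and TGF-beta, and SMAD4 is the partner of both branches. In DNA, SMAD1, SMAD5 and SMAD4 recognise the letters CAGAC or GC-rich elements such as GGCGCC.

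The cells were undifferentiated R1, a mouse embryonic stem cell line, kept without feeder cells and with leukemia inhibitory factor and serum replacement. They were cross-linked for 15 min and sonicated to fragments of about 300 to 500 bp. For SMAD1/5, SMAD2 and SMAD4 alike, 10 µg of antibody was used, and the immunoprecipitate (IP) was hybridised in Cy5 against the whole cell extract (input) in Cy3. There were 6 arrays, 2 per antibody with different probes, 1 biological replicate per antibody and no dye swap, so each gene was measured on 1 array per antibody. Array 1 held 36 of the genes and array 2 held 45. No p-value is given, because no group holds a second array of the same probes. The errors below are SDs over the probes of a promoter on 1 array and do not measure the spread between experiments. A dye effect cannot be told apart from enrichment, and for SMAD4 the antibody cannot be told apart from a newer version of the image software. The extraction protocol of both arrays titled SMAD2 names an antibody against Smad1/5, while their titles and sample types name Smad2. They are called SMAD2 here as titled.

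Probe brightness differed between the antibodies. Among the 680 probes near start sites of ribosomal protein genes, both channels were well above background for 87.8% with SMAD1/5, 93.5% with SMAD2 and 100% with SMAD4. The input value had been replaced by a software surrogate, set for dim spots, at 80 of these probes on SMAD1/5, 43 on SMAD2 and 0 on SMAD4, and 12 were left out as spot outliers on SMAD2. The median SD over the probes of a ribosomal protein promoter was 1.52 log2 units on SMAD1/5, 0.85 on SMAD2 and 0.70 on SMAD4, so a promoter value was least certain on SMAD1/5.

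Promoter sequence was available for 61 of the 81 genes (RefSeq, GRCm38.p6, 250 bases before to 50 after the annotated start). Among those for which no sequence was matched were Rpl17, Rpl21, Rpl23a, Rpl29, Rpl3, Rpl30, Rpl32, Rpl36, Rpl7, Rpl8, Rplp1, Rps14, Rps20, Rps27a and Rps29. A pyrimidine run of at least 8 that reached within 5 bases of the annotated start was found at 21 of the 61 promoters (34.4%) against 9.63% of all 27025. The oligopyrimidine start, the signature of the family, was counted more strictly, as a C at the exact annotated start followed by at least 4 pyrimidines. It was found at 12 of the 61 (19.7%) against 2.49% of all promoters. Those 12 are shown with 15 bases on either side of the boundary before the start base, and capitals mark the pyrimidine tract from the start base on.
Rpl14 (chr9:120571502-120571531, plus strand): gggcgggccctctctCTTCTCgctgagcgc
Rpl15 (chr14:18270972-18271001, minus strand): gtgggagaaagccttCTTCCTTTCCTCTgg
Rpl28 (chr7:4792950-4792979, plus strand): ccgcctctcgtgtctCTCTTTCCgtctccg
Rpl35 (chr2:39005117-39005146, minus strand): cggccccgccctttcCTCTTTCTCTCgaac
Rpl38 (chr11:114668565-114668594, plus strand): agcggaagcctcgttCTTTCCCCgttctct
Rplp2 (chr7:141447636-141447665, plus strand): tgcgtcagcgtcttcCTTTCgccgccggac
Rps10 (chr17:27635230-27635259, minus strand): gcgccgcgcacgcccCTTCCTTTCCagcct
Rps15a (chr7:118116133-118116162, minus strand): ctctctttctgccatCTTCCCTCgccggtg
Rps18 (chr17:33955651-33955680, minus strand): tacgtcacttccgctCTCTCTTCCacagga
Rps21 (chr2:180257364-180257393, plus strand): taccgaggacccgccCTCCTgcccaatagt
Rps27 (chr3:90213634-90213663, minus strand): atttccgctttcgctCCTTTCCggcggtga
Rps6 (chr4:86857353-86857382, minus strand): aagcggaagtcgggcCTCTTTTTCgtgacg
The tracts were between 5 and 13 bases long within these windows. That of Rpl15, a large subunit protein, was the longest of the 12.

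To set the sequences beside the array values, the 250 bases upstream of the start are shown for members with a sequence in the table. These are the members with the highest and the lowest promoter ratio on each antibody and, last, the member whose lowest ratio over the 3 antibodies was highest. Capitals mark the SMAD element core CAGAC on either strand, and the GC-rich element GGCGCC.
Rps25 (chr9:44407464-44407713, plus strand): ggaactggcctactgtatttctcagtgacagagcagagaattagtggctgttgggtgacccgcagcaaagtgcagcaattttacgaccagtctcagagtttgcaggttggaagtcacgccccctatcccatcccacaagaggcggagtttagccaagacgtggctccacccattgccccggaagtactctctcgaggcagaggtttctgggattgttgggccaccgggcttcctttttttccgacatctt
Rps19 (chr7:24884342-24884591, plus strand): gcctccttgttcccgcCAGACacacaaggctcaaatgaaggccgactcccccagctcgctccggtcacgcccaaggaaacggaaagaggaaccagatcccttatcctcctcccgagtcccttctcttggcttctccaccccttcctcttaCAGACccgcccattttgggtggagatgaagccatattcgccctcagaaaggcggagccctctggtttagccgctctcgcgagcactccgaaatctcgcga
Rpl6 (chr5:121204251-121204500, plus strand): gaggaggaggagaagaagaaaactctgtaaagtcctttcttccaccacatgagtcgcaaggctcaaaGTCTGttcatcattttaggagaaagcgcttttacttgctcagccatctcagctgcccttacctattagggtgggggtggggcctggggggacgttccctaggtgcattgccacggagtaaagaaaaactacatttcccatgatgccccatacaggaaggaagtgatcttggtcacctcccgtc
Rps15a (chr7:118116148-118116397, minus strand): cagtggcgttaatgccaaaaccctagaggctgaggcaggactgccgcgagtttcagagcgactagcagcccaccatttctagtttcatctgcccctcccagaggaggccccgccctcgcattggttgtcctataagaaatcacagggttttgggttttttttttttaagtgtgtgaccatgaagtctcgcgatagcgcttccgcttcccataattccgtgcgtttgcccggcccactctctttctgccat
Rps24 (chr14:24490428-24490677, plus strand): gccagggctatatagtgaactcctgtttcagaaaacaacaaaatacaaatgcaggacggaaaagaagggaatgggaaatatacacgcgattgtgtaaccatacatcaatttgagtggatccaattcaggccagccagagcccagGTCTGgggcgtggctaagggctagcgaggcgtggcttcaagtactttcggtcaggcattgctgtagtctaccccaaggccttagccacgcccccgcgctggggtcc
Rpl41 (chr10:128549169-128549418, minus strand): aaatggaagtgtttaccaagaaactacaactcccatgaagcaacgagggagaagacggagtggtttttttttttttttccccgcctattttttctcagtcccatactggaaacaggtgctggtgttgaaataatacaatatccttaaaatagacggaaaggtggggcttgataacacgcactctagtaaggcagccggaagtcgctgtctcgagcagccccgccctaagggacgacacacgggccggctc
Rpl31 (chr1:39367601-39367850, plus strand): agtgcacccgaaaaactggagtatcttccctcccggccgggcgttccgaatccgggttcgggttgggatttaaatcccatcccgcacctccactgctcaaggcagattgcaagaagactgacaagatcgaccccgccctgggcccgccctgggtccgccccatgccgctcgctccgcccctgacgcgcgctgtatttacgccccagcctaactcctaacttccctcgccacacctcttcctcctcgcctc
Rps19, with the lowest SMAD1/5 ratio, held CAGAC at 2 positions of this stretch, and Rpl6 and Rps24, with the highest SMAD2 and SMAD4 ratios among those shown, held it at 1 each. Rps25, Rps15a, Rpl41 and Rpl31 held none of these letters here. A match of so few letters is a description and not a binding site.

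Over the whole 300 bases, either strand, the CAGAC core stood in 49.2% of ribosomal protein promoters and in 49.7% of all promoters. GGCGCC stood in 14.8% against 11.96%, and the palindrome GTCTAGAC in 0 of 61 against 0.211%. SMAD element letters were therefore about as frequent as elsewhere. Other letters differed more. The ETS type core CGGAAG stood in 68.9% against 17.2%, the GC box GGCGG in 86.9% against 49.0%, and ATGGCGG, the core of the YY1 element that overlaps the GC box, in 14.8% against 4.19%. TATAAA was less frequent, at 8.197% against 14.2%. Median GC content was 58.0% (SD 6.19 over 61 promoters) against 52.7% (SD 11.3), and the observed over expected CpG frequency was 0.87 against 0.39. On SMAD4 the 30 members with CAGAC had a median promoter ratio of -0.31 and the 31 without had -0.28. On SMAD2 the medians were 0.04 and 0.10, and on SMAD1/5 -0.19 and -0.17, so members with and without the core lay close together on each antibody. The 9 members with GGCGCC had medians of -0.14 on SMAD1/5, 0.20 on SMAD2 and -0.20 on SMAD4, and the 52 without had -0.19, 0.08 and -0.30, slightly lower on each antibody.

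The promoter ratio is the mean log2 of IP over input, centred on each array's median, over a gene's probes within 1000 bp of the start site. A ratio of at least 1, which is 2-fold, was called high and a ratio of at most -1 low. On SMAD4 the ribosomal protein genes stood furthest from the other genes, and below them. Their median ratio was -0.33 (SD 0.40, 81 genes) and that of all 16066 measured genes 0.00 (SD 0.46). Of the 81, 67 lay under the median of all genes and 45 under the 25th percentile. The difference between the medians was -0.30 on array 1 and -0.37 on array 2, which hold different members. The single values were small. Only Rps20 was high and none was low, 1.23% and 0% of the members, against a background of 2.65% of all genes called high and 0.815% called low.

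**Figure D1:**
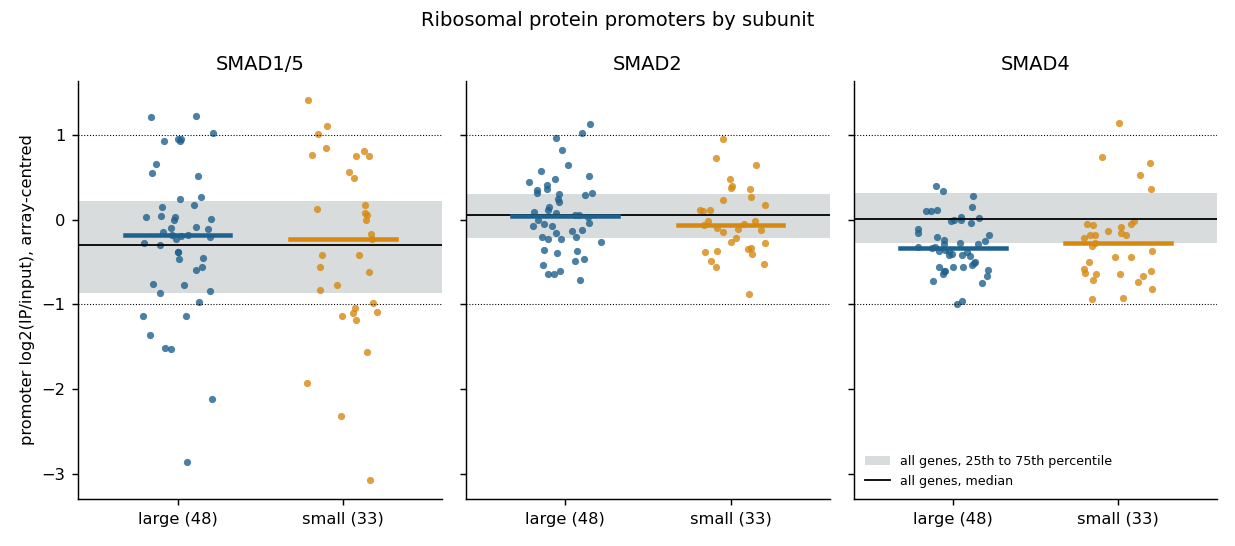
Promoter log2 ratio of IP over input (array-centred) of each ribosomal protein gene, by antibody and subunit, 48 large and 33 small subunit genes. Thick bars are medians, the black line is the median and the grey band the 25th to 75th percentile of all genes, and dotted lines mark ratios of 1 and -1. On SMAD4 both subunits sit under the median of all genes, at -0.33 and -0.28, and on SMAD1/5 the members spread from -3.07 to 1.41.

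The SMAD4 ratios at the low end belonged to proteins of both subunits. Rpl41 (chromosome 10), the very short and basic protein of the large subunit, had a SMAD4 ratio of -0.999 (SD 0.74, 7 probes), just short of a low call, with 0.82 on SMAD2 and 0.03 on SMAD1/5. Its IP signal on SMAD4 was 0.57 above the array median on the log2 scale and its input 1.67 above, so the input was the brighter channel. Rpl36 (chromosome 17), on the surface of the large subunit, was at -0.95 (SD 0.86, 5 probes) on SMAD4, -0.65 on SMAD2 and -2.11 on SMAD1/5, below 0 on all 3 antibodies. Rps25 (chromosome 9), which helps internal initiation on some messages, was at -0.94 (SD 0.70, 6 probes) on SMAD4 but at 0.72 on SMAD2 and 1.102 on SMAD1/5. All 3 had a SMAD4 input at least 1.52 above the array median.

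At the high end, Rps20 (chromosome 4), a protein of the small subunit head, had a SMAD4 ratio of 1.14 (SD 1.43, 9 probes), 0.11 on SMAD2 and -1.93 on SMAD1/5. Its SMAD4 IP signal was -0.56 and its input -1.58, both below the array median, and with the mean input of the 3 antibodies as denominator its ratio was -0.03. Single probes of Rps20 ranged from -0.54 to 3.20 on SMAD4, with the 3 highest, 2.55, 2.88 and 3.20, next to each other between 298 and 676 bp inside the gene. Rps24 (chromosome 14), a protein of small subunit assembly that is mutated in Diamond-Blackfan anaemia, was at 0.74 (SD 1.07, 6 probes). Rps6 (chromosome 4), the substrate of S6 kinase, was at 0.67 (SD 1.19, 9 probes), and Rps3a (chromosome 3), which contacts initiation factors, at 0.52 (SD 0.31, 7 probes). Rpl31 (chromosome 1), at the exit tunnel of the large subunit, was the highest of the 48 large subunit members at 0.40 (SD 0.49, 9 probes). The 4 highest SMAD4 ratios within the name pattern were thus small subunit genes. For 3 of them, Rps20, Rps24 and Rps6, the SD over probes exceeded the ratio. Rplp0, a large subunit gene that the name pattern did not take in, had 0.63 (SD 0.44, 10 probes), above Rps3a and Rpl31.

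**Figure D2:**
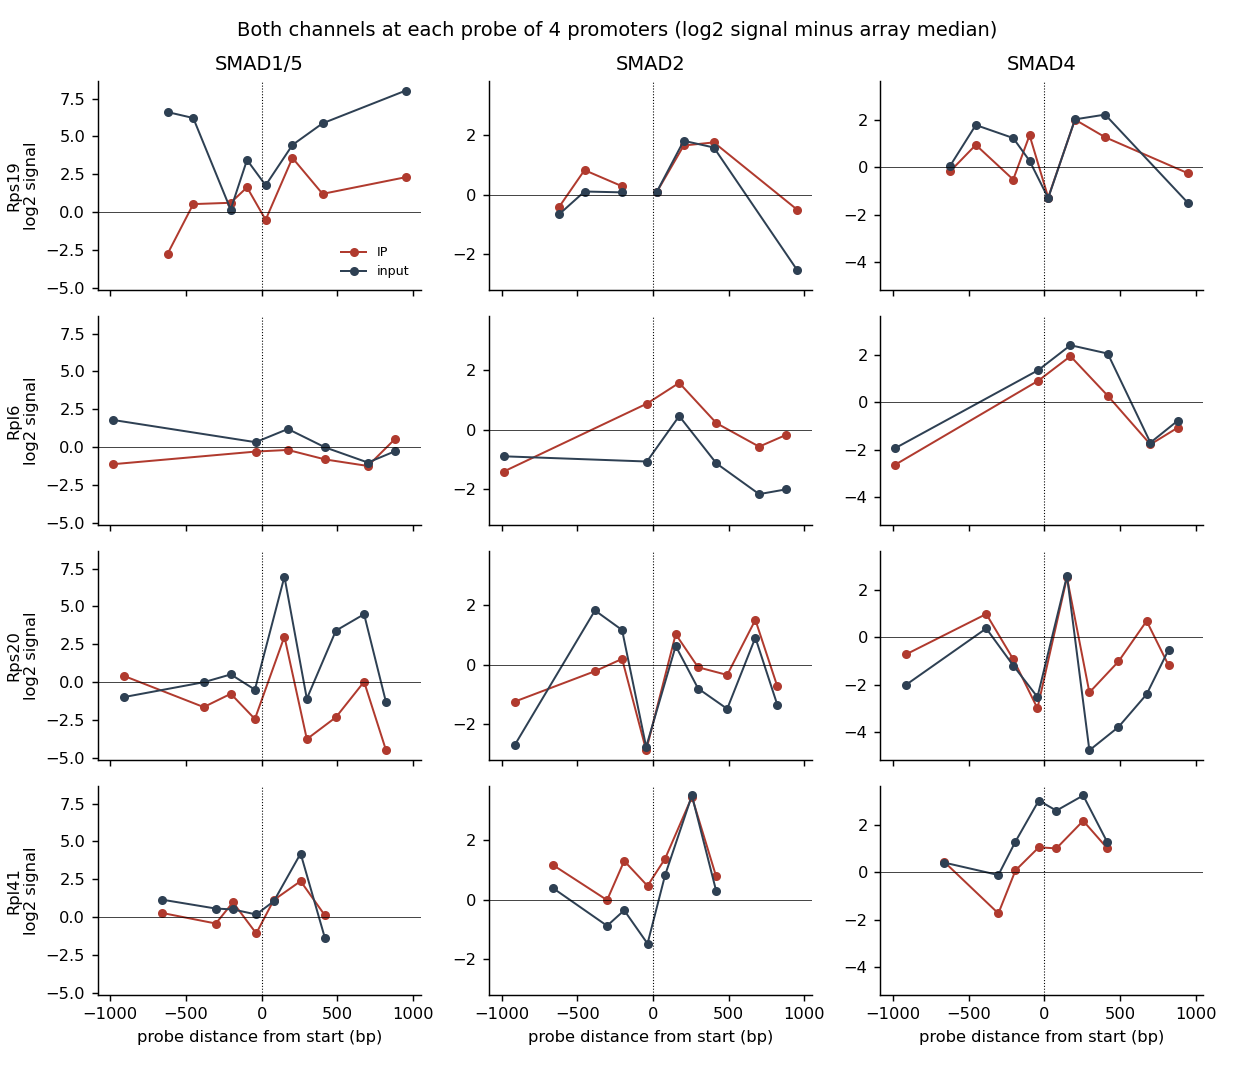
Log2 IP (red) and input (dark) signal minus the array's channel median at each probe within 1000 bp of the start site of Rps19, Rpl6, Rps20 and Rpl41, by distance, on each antibody. At Rpl41 the SMAD4 input lies above the IP around the start, at Rpl6 the SMAD2 IP lies above the input from -40 bp on, and at Rps19 the SMAD1/5 input reaches 8.03. A gap marks a spot left out as an outlier.

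The channels show where the SMAD4 difference sat. At ribosomal protein promoters the SMAD4 input was 0.89 above the array median against 0.37 for all genes, a difference of 0.52, while the IP was at 0.51 against 0.29, a difference of 0.22. The input of 61 of the 81 genes was above the median of all genes, and that of 41 was above the 75th percentile. On SMAD2 the input was at 0.53 against 0.29 and the IP at 0.55 against 0.45. On SMAD1/5 the input was at 1.01 against 0.89 and the IP at 0.26 against 0.12. With both arrays together, the medians of both channels were thus higher for ribosomal protein promoters than for all genes on all 3 antibodies. The excess of the input over all genes was 0.13 on SMAD1/5, 0.24 on SMAD2 and 0.52 on SMAD4. By array it was -0.03 and 0.17 on SMAD1/5, 0.31 and 0.16 on SMAD2, and 0.43 and 0.54 on SMAD4. With the mean input of the 3 antibodies' arrays in place of the SMAD4 arrays' own input, the SMAD4 difference in median ratio was -0.03. After removal of each array's trend of the ratio on its own input the difference was -0.16. The part of the input's brightness in the SMAD4 result beyond these values was not tested.

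**Figure D3:**
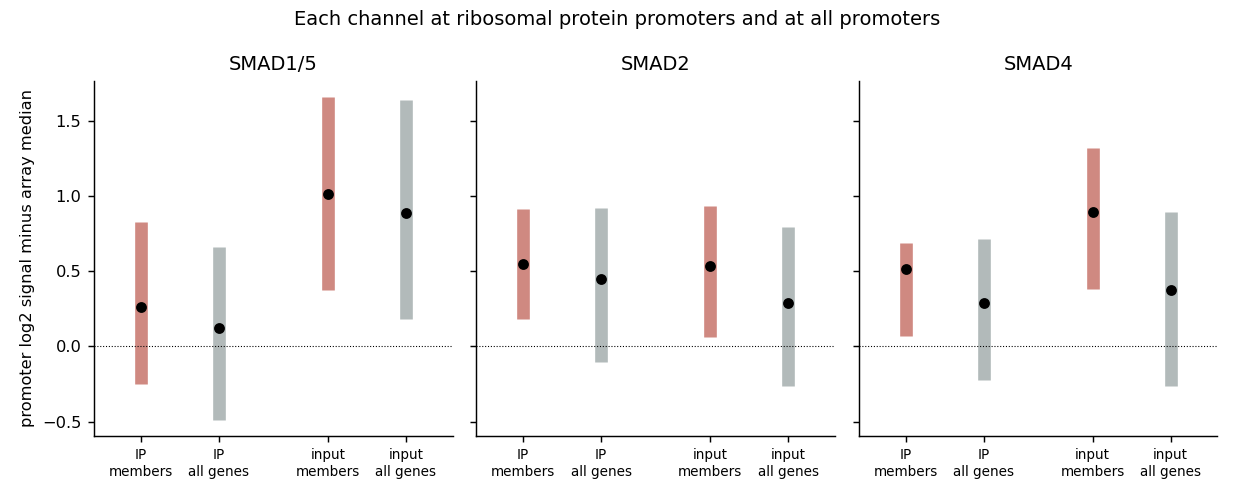
Median (point) and 25th to 75th percentile (bar) of the promoter log2 IP and input signal, minus the array's channel median, for 81 ribosomal protein genes (red) and all genes (grey) on each antibody. The largest gap between members and all genes is that of the SMAD4 input, 0.89 against 0.37.

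By distance, the largest mean SMAD4 difference lay at the start site. The mean SMAD4 ratio of ribosomal protein genes was -0.44 (SE 0.08 over genes) in the 500 bp before the start and -0.46 (SE 0.07) in the 500 bp after it, against -0.06 and 0.02 for all genes. In the next bin downstream it was 0.01 (SE 0.07) against 0.13. Far upstream, bins differed in both directions with larger SEs. The mean ratio was -0.12 (SE 0.15) against 0.14 from -3500 to -3000 bp, and 0.33 (SE 0.15) against 0.14 from -4000 to -3500 bp. The SMAD4 input of the members reached 1.29 (SE 0.11) in the first 500 bp after the start against 0.49 for all genes, and the IP 0.72 (SE 0.08) against 0.40. With probes within 500 bp alone, 75 members kept at least 3 probes. Their median SMAD4 ratio was -0.42 against -0.06, their input 1.13 against 0.56, and their IP 0.41 in both groups. In that narrower window 11 of 75 members (14.7%) were low, against 2.95% of 15155 genes. Among them were Rpl21, Rpl36, Rpl4, Rpl41, Rpl5, Rps13, Rps18, Rps2 and Rps7, with ratios from -1.42 at Rps13 to -1.06 at Rps2 and Rpl21. The SMAD4 input of these named genes ran from 1.01 at Rps2 to 2.41 at Rpl5.

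Downstream of the start, both channels stayed high. Beyond 1000 bp downstream of the start the median SMAD4 IP of the members was 0.61 against -0.05 for all genes, the SMAD2 IP 0.59 against -0.02 and the SMAD1/5 IP 0.62 against -0.16. The input was higher there as well, at 0.60 against -0.13 on SMAD4, 0.24 against -0.12 on SMAD2 and 0.80 against 0.26 on SMAD1/5. The ratios in that stretch were 0.07 against 0.11 on SMAD4, 0.17 against 0.02 on SMAD2 and 0.08 against -0.05 on SMAD1/5, closer to all genes than either channel was. Ribosomal protein genes are short, so probes there can lie in exons, introns or beyond the gene.

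**Figure D4:**
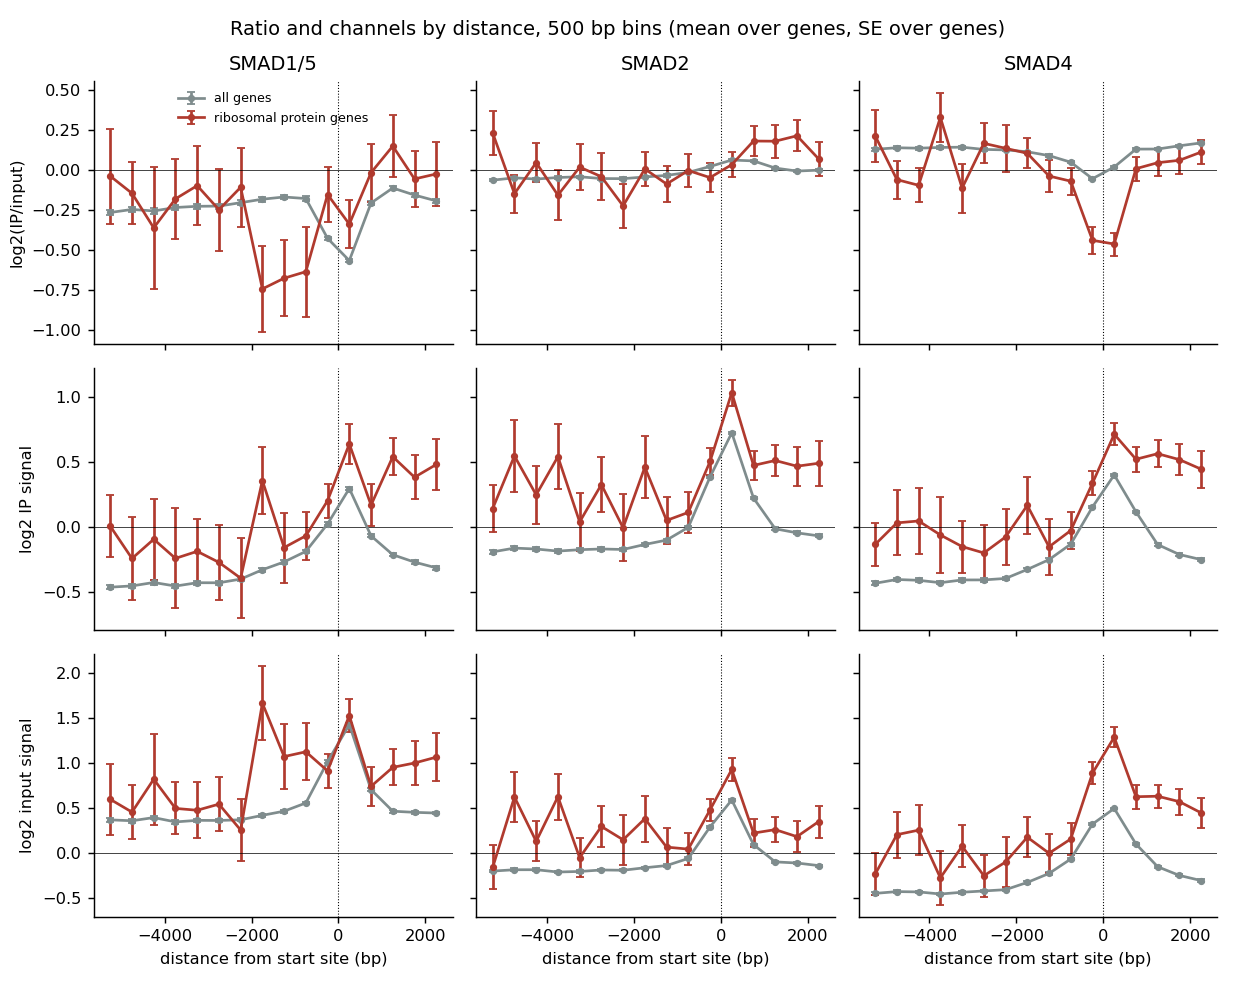
Mean over genes of the log2 ratio (top), IP (middle) and input (bottom) in 500 bp bins of distance from the start site, for ribosomal protein genes (red) and all genes (grey), with the SE over genes. On SMAD4 the ratio of the members dips to -0.44 and -0.46 in the bins on either side of the start, where their input reaches 0.89 and 1.29.

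On SMAD1/5 the ribosomal protein genes lay near all genes in promoter ratio, with a wide spread. Their median ratio was -0.18 (SD 0.92, 81 genes) against -0.31 (SD 0.84), and the difference was 0.17 on array 1 and 0.0021 on array 2. High ratios were found at 6 members (7.41%) against 4.29% of all genes, and low ratios at 16 (19.8%) against 20.5%. The share of low members was thus close to the background. By distance, the members lay lower in some upstream bins. From -2000 to -1500 bp their mean SMAD1/5 ratio was -0.74 (SE 0.27 over genes) against -0.18 for all genes. It was -0.68 (SE 0.24) against -0.17 from -1500 to -1000 bp, and -0.64 (SE 0.28) against -0.18 from -1000 to -500 bp. Their input in these bins was 1.67, 1.07 and 1.12 against 0.42, 0.46 and 0.55. In the 500 bp before and after the start the ratios were -0.16 and -0.34 against -0.43 and -0.57. Rpl23a, Rps25, Rpl3 and Rps28 were among the 6 high members. Rpl23a (chromosome 11), at the exit tunnel, had 1.20 (SD 1.08, 8 probes) on SMAD1/5, 0.05 on SMAD2 and -0.67 on SMAD4. Rpl3 (chromosome 15), which reaches the peptidyl transferase centre, had 1.02 (SD 1.89, 10 probes), 0.03 and -0.56 in the same order. Rps28 (chromosome 17) had 1.01 (SD 0.73, 4 probes), 0.95 and -0.44. These 4 were below the median of all genes on SMAD4, and Rpl23a, Rps25 and Rpl3 have probes shared with a neighbouring gene.

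The 3 lowest SMAD1/5 ratios were those of Rps19, Rpl37 and Rps19bp1. Rps19 (chromosome 7), the first gene found mutated in Diamond-Blackfan anaemia, had -3.07 (SD 3.20, 8 probes) on SMAD1/5, 0.37 on SMAD2 and -0.06 on SMAD4. Its SMAD1/5 input was 4.57 above the array median and its IP 0.83 above, and single probes ran from -8.68 to 1.12 in ratio. Rpl37 (chromosome 15) had -2.86 (SD 2.398, 12 probes), -0.47 and -0.33 on SMAD1/5, SMAD2 and SMAD4, with an input of 3.92 on SMAD1/5. The look-alike Rps19bp1 (chromosome 15) had -2.31 (SD 2.91, 6 probes), 0.11 and 0.36, with a SMAD1/5 input of 1.87 and an IP of -0.88. The input was thus far above the array median at Rps19 and Rpl37, while at Rps19bp1 it was less bright and the IP lay below the median. The SMAD2 and SMAD4 ratios of these 3 promoters lay between -0.47 and 0.37, so their low values were seen on the SMAD1/5 arrays.

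On SMAD2 the ribosomal protein genes were close to all genes, with a median ratio of -0.02 (SD 0.43) against 0.05 (SD 0.41). The difference was -0.08 on array 1 and -0.06 on array 2. High ratios were found at 2 members, Rpl6 and Rpl26 (2.47%), against 0.754% of all genes, and low ratios at none against 1.21%. Rpl6 (chromosome 5) had 1.13 (SD 0.90, 6 probes) on SMAD2, -0.18 on SMAD1/5 and -0.51 on SMAD4. Its SMAD2 IP was 0.09 and its input -1.13, so a dim input went with the high ratio. Rpl26 (chromosome 11), which binds the p53 message, had 1.02 (SD 1.00, 8 probes) on SMAD2, 0.65 on SMAD1/5 and -0.04 on SMAD4, with an IP of 1.55 on SMAD2. Just under the line were Rpl8 (chromosome 15), near the peptidyl transferase centre, at 0.96 (SD 0.46, 10 probes), Rps28 at 0.95 (SD 0.80, 4 probes) and Rpl41 at 0.82 (SD 0.69, 7 probes). The lowest SMAD2 ratios were those of Rps15a (chromosome 7) at -0.88 (SD 0.58, 9 probes), Rpl37a (chromosome 1) at -0.71 (SD 0.89, 5 probes) and Rpl36 at -0.65 (SD 0.60, 5 probes).

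Large and small subunit genes did not stand apart in median promoter ratio. The medians were -0.18 and -0.23 on SMAD1/5, 0.04 and -0.06 on SMAD2, and -0.33 and -0.28 on SMAD4, differences of 0.04, 0.10 and -0.05 between subunits whose SDs over genes ran from 0.32 to 1.05. The small subunit had the wider SMAD4 spread, from -0.94 to 1.14 (SD 0.49, 33 genes) against -0.999 to 0.40 (SD 0.32, 48 genes). Its input was brighter on SMAD2, with a median of 0.76 against 0.39, and so was its IP, 0.66 against 0.47. On SMAD4 the inputs were at 0.91 and 0.88.

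Windows gave a local view. A window is the mean ratio of at least 3 probes within 500 bp of a probe, and its z is the distance from the array's median window in robust SDs. A gene was called enriched if a window at any of its probes reached a z of 4. No ribosomal protein gene was enriched on any antibody, while 0% of all genes were on SMAD1/5, 0.0665% on SMAD2 and 2.48% on SMAD4. The median highest z of a member was 1.06 on SMAD4 against 1.74 for all genes, 1.485 against 1.35 on SMAD2 and 1.26 in both groups on SMAD1/5, where Rpl23 was the middle gene of both. A z of at least 2 was reached by 16 members (19.8%) on SMAD4 against 40% of all genes, by 17 (21.0%) on SMAD2 against 18.4%, and by 4 (4.94%) on SMAD1/5 against 5.95%.

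The highest SMAD4 window was at Rpl6, with a z of 3.58 (mean ratio 2.07, SD 1.24 over 4 probes), 1424 bp downstream of the start. Rps7 followed with 3.38 (1.95, SD 1.07 over 4 probes), 9752 bp downstream of its start. Rps16 was next with 2.93 (1.71, SD 1.55 over 3 probes), 1728 bp downstream of its start. These distances do not show whether a window lies within the gene. Rps7, a small subunit protein that binds Mdm2, had a promoter ratio of -0.58 on SMAD4. Among the highest on SMAD2 was Rpl31 with 3.31 (mean ratio 1.90, SD 0.54 over 3 probes), 2309 bp downstream of its start. Another was Rpl35a with 2.65 (1.49, SD 1.22 over 5 probes), 40 bp upstream of its start. Apart from that of Rpl35a, these named windows lay over 1000 bp from the start site. Windows called low by the same rule turned over were found at 3 members, Rpl27a, Rpl28 and Rps19bp1, on SMAD1/5, against 2.61% of all genes, and at no member on SMAD2 or SMAD4, against 0.339% and 0.0484%. Rpl27a had a z of -4.97 (mean ratio -6.15 over 3 probes), 2036 bp downstream of its start. Rpl28 had a z of -4.24 (-5.28 over 3 probes), at -1228 bp from the start.

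The 3 antibodies were set side by side gene by gene. Only 3 members, Rpl14, Rpl31 and the look-alike Rpl3l, were above the median of all genes on every antibody, 3.704% against 13.5% of all genes, and 15 were above it on none, 18.5% against 13.7%. Rpl31 had 0.17 on SMAD1/5, 0.64 on SMAD2 and 0.40 on SMAD4, Rpl14 (chromosome 9) had 0.27, 0.57 and 0.10, and Rpl3l (chromosome 17) had -0.28, 0.30 and 0.10. The median of all genes on SMAD1/5 is itself below 0. The place of Rpl14 depended on distance. With probes within 500 bp alone it had -1.40 on SMAD1/5 and -0.39 on SMAD4, against -0.48 and -0.06 for the median of all genes. Rpl31 and Rpl3l stayed above the median of all genes on every antibody in that narrower window. The SMAD2 ratio exceeded the SMAD4 ratio at 55 members (67.9%), 35 of the large and 20 of the small subunit, against 52.3% of all genes. No member was high on more than 1 antibody, and only 50 of all 16047 genes were. Across the 81 genes Pearson's r was 0.08 between SMAD1/5 and SMAD2, -0.29 between SMAD1/5 and SMAD4 and 0.03 between SMAD2 and SMAD4, against 0.05, 0.01 and 0.07 across all genes. The IP channels of different antibodies correlated more, from 0.55 to 0.76 across members and from 0.70 to 0.87 across all genes. The IP correlated with its own input at 0.53, 0.75 and 0.83 across members on SMAD1/5, SMAD2 and SMAD4, and at 0.65, 0.87 and 0.88 across all genes. These are descriptions across genes, whose points share probes and base composition on the arrays compared.

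**Figure D5:**
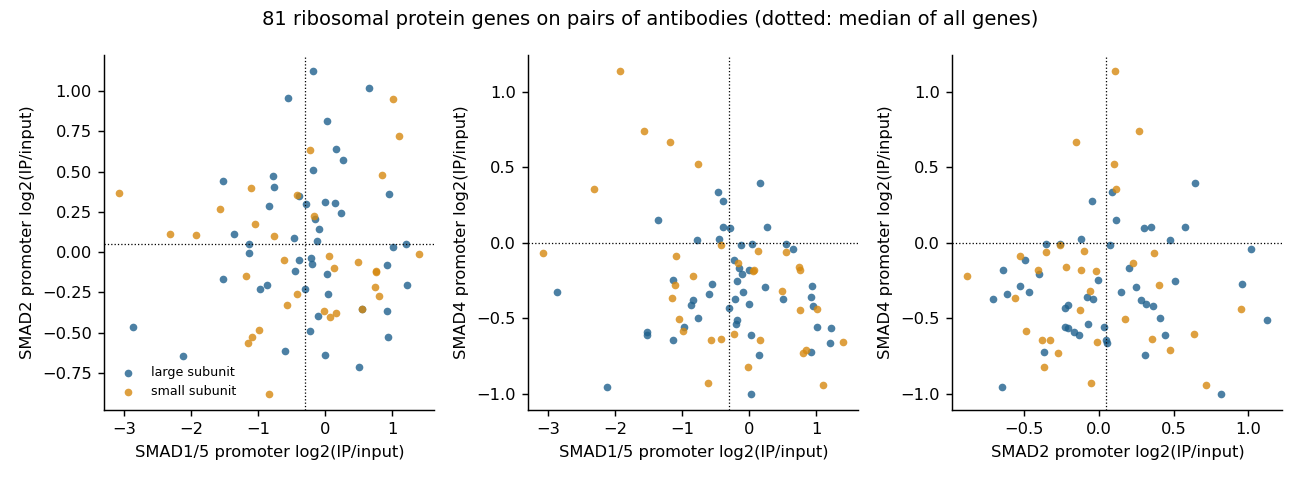
Promoter log2 ratios of 81 ribosomal protein genes on each pair of antibodies, by subunit, with dotted lines at the median of all genes. The points show little common order, with r of 0.08, -0.29 and 0.03 from left to right. Most points of the panels with SMAD4 lie under its dotted line.

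Among well-known members, Rpl5 (chromosome 5) and Rpl11 (chromosome 4), which with the 5S RNA bind Mdm2 and so link ribosome assembly to p53, had SMAD4 ratios of -0.61 (SD 1.01, 9 probes) and -0.01 (SD 0.58, 6 probes). Rpl5 had 0.03 on SMAD1/5 and -0.14 on SMAD2, and Rpl11 had 0.54 and -0.35. Rpsa (chromosome 9), also known as the laminin receptor, had -1.04 (SD 1.18, 8 probes), 0.17 and -0.51 on SMAD1/5, SMAD2 and SMAD4. Rps6 had -1.18 on SMAD1/5 and -0.15 on SMAD2. Rpl10 (chromosome X), the last protein to join the large subunit, had 0.95 (SD 1.29, 12 probes), 0.36 and -0.42. The 4 X-linked members, Rpl10, Rpl36a, Rpl39 and Rps4x, had median ratios of 0.22 on SMAD1/5, 0.08 on SMAD2 and -0.04 on SMAD4, against -0.59, -0.02 and 0.14 for all 543 X-linked genes. Rplp0, the stalk protein outside the name pattern on these arrays, had -0.47, 0.11 and 0.63, and Rpl34 had 0.13, 0.04 and -0.33. None of these was high, and Rpsa and Rps6 were low on SMAD1/5 alone.

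The 6 look-alikes had SMAD4 ratios from -0.43 to 0.36, and 5 of them lay above the median of the 75 ribosomal proteins proper, which was -0.34. Rpl22l1 (chromosome 3), Rpl7l1 (chromosome 17) and Rps27l (chromosome 9), a target of p53, had SMAD4 ratios of -0.16 (SD 0.75, 9 probes), -0.43 (SD 0.80, 10 probes) and -0.09 (SD 0.67, 9 probes). Rpl3l (chromosome 17), the muscle paralog of Rpl3, had 0.10 (SD 0.67, 11 probes) and Rpl36al (chromosome 12) 0.15 (SD 1.46, 5 probes). Rps19bp1 was the highest of the look-alikes, at 0.36 (SD 1.07, 6 probes).

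At 24 members some probes near the start are shared with a neighbouring gene, as at divergent promoters. Their median SMAD4 ratio was -0.44 against -0.27 for the 57 members without shared probes, and over all genes with and without shared probes it was -0.10 and 0.02. The members lay below the other genes in both classes.

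Other genes of protein synthesis were compared through lists of known roles. Over 75 mitochondrial ribosomal protein genes the median SMAD4 ratio was -0.20, over 21 measured genes, of 22 listed, for translation factors and other oligopyrimidine messages -0.32, and over 27 genes of ribosome assembly and ribosomal RNA synthesis -0.21, all below the 0.00 of all genes. Their SMAD4 inputs were at 0.74, 0.78 and 0.74 against 0.37. On SMAD2 the medians were 0.24, 0.10 and 0.26, against -0.02 for ribosomal protein genes, and on SMAD1/5 -0.20, -0.20 and 0.27. High and low ratios on SMAD4 numbered 0 and 1 in the mitochondrial list and 0 in the other lists. Enriched SMAD4 windows were found at 2 of the 75 mitochondrial ribosomal protein genes, near the background of 2.48% of all genes.

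In the mitochondrial list Mrpl47 (-1.10, SD 0.73, 6 probes) and Mrpl30 (-0.98, SD 0.63, 9 probes) were lowest on SMAD4, and Mrps2 (0.74, SD 0.88, 6 probes) and Mrps14 (0.55, SD 0.87, 8 probes) highest. Among translation factors and related genes Fau, which encodes a small subunit protein fused to a ubiquitin-like one, was lowest at -0.93 (SD 0.31, 5 probes), with an input of 2.11, followed by Nap1l1 at -0.74 (SD 0.61, 7 probes). Eif4b, an initiation factor, was highest at 0.65 (SD 1.30, 5 probes), then Eef1d at 0.10 (SD 0.52, 7 probes). In the assembly list Wdr12 (-0.94, SD 0.55, 5 probes) and Brix1 (-0.71, SD 0.56, 8 probes), both of large subunit maturation, were lowest. Polr1a, the largest subunit of RNA polymerase I, was highest at 0.77 (SD 0.52, 4 probes), then Gar1 at 0.42 (SD 1.32, 9 probes).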

How the data were processed

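Immunoprecipitate and input signals of 6 2-colour Agilent arrays were used as deposited. Per the file headers, the intensity values are Feature Extraction's processed signals, background-subtracted and dye-normalized (version 9.1.3.1 for SMAD1/5 and SMAD2, 9.5.3.1 for SMAD4), with surrogates at dim spots. Spot flags are likewise per the file headers. The authors' deposited log2 table was an alternative source, and limma is named in the submitters' processing notes. The build of the probe positions was not given in the sources used here.

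From each log2 of red over green the median of its array was subtracted. Values were averaged, without feature outlier spots, over at least 3 probes within 1000 bp of the start. Windows took probes within 500 bp, and their robust SD is 1.4826 times the median absolute deviation of windows under the median. An enriched window also needed 2 probes above the 95th percentile, and a low window is the same turned over. Scripts were tested on simulated data and used Python 3.11.15, numpy 2.4.6, pandas 2.3.3, matplotlib 3.10.9, R 4.3.3 and limma 3.58.1 (normexp, offset 50).

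Members and lists were chosen with earlier results of these data known. Genes were named by rule: the 5 highest and 3 lowest ratios per antibody, the 3 highest windows or the called ones, the 3 with the highest lowest ratio, look-alikes, well-known members, and the 2 highest and 2 lowest SMAD4 ratios of each other list. The genes low within 500 bp, Rps28 on SMAD1/5 and the X-linked genes were named after their values were seen. Some members that these rules take are counted but not reported by name here. Alternatives changed the background correction, source, denominator, centring, distance, summary, members and window. The number of arrays limits the precision.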

Additional observations from a re-analysis of the deposited data

Results flagged for a closer look

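The median promoter ratio of ribosomal protein genes minus that of all genes had one sign on both SMAD1/5 arrays and the other on both arrays of the other antibodies. It was 0.17 on array 1 and 0.0021 on array 2 of SMAD1/5. On SMAD2 it was -0.076 and -0.055, and on SMAD4 -0.30 and -0.37. The difference between antibodies was not tested, since each has 1 array of each kind, and the SMAD1/5 value of array 2 is close to 0.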

How the results depend on the processing

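The SMAD4 difference in median ratio between ribosomal protein genes and all genes (-0.33) was below 0 in 14 of 14 alternatives, from -0.36 to -0.034. It was -0.20 with normexp, -0.034 with the mean input, -0.16 with the input trend removed and -0.15 with all probes. The SMAD4 input difference (0.52) ran from 0.34 to 0.57 in 11 of 11. The SMAD4 IP difference (0.22) was 0.0068 within 500 bp and 0.38 with all probes, and large minus small subunit (-0.05) was 0.21 with the mean input. The SMAD2 ratio difference (-0.07) was 0.068 with all probes, where its IP difference (0.10) was 0.40. The SMAD1/5 difference kept its sign in 11 of 14.

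Counts moved most, and the share of all genes called under the same setting stands in brackets. High SMAD1/5 members (6) were 3 with normexp (1.05%), 1 with the authors' values (0.660%), 1 with the mean input (2.23%), 21 uncentred (20.4%), 11 within 500 bp (6.86%), 2 with all probes (0.551%), 17 with the median (9.03%) and 2 without genes that share probes (4.29%). Low SMAD1/5 members (16) were 1 with normexp (1.62%), 7 with the authors' values (6.32%), 9 with the mean input (7.48%), 6 with the input trend removed (8.36%), 7 uncentred (6.63%), 4 with all probes (7.82%) and 10 with the median (21.9%). High SMAD2 members (2) were 0 with normexp (1.73%), the authors' values (0.224%) or the mean input (0.118%), 1 with chromosome centring (0.760%), all probes (0.024%) or the median (1.05%), and 4 within 500 bp (2.02%). Low SMAD2 members (0) were 4 with normexp (3.05%) or the mean input (2.58%) and 1 within 500 bp (2.46%). High SMAD4 members (1) were 0 with normexp (0.268%), the authors' values (0.610%), the mean input (0.611%), the input trend removed (0.361%), all probes (0.419%) or the median (2.45%), and 2 within 500 bp (5.03%). Low SMAD4 members (0) were 4 with the mean input (3.29%) or uncentred (1.31%), 11 within 500 bp (2.95%) and 2 with the median (1.46%). Enriched members (0) were 9 on SMAD1/5 with normexp (5.18%), 2 on SMAD2 (1.49%) and 2 on SMAD4 (10.6%) at a z of 3, and 1 on SMAD4 with 250 bp windows (2.31%).

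Of the named promoters called high or low, those below reversed sign. Smaller ratios were not counted as reversed when their sign changed, so they are left out here. With all probes, SMAD1/5 ratios became 0.00608 at Rps24 and 0.17 at Rpsa. With normexp Rpsa became 0.36 on SMAD1/5 and Rpl26 -0.12 on SMAD2, and with the mean input Rps20 became -0.029 on SMAD4. The cause was not tested. Of the summary values 224 stayed and 49 moved, and of those of named members 1342 stayed, 33 moved and 5 reversed. For a named member, stayed means a shift smaller than the SD over its own probes. The median of that SD over members was 1.52 log2 units on SMAD1/5. The number that stayed can thus include values that changed sign, and it is no measure of stability. Leaving out background outlier spots and adding Rplp0 and Rpl34 were chosen after seeing the data. The trend on probe GC content was not run, because no probe sequences were used here. No paired analysis was possible because each antibody has 1 array of each kind.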
